A study of Mus musculus with 4 samples.

Results

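The regions described are a pair of intervals inside the large olfactory receptor gene clusters of the mouse, read on promoter arrays of p53 chromatin immunoprecipitation (ChIP-chip). They were chosen by position alone: every non-control probe without an outlier mark on its spot whose array coordinate lay between 85.5 and 89.5 Mb of chromosome 2 or between 37.8 and 39.6 Mb of chromosome 9. This gave 3481 of 473503 probes (0.735%), 1831 on chromosome 2 in 83 tiled regions and 1650 on chromosome 9 in 79 tiled regions. A tiled region is a run of probes with no gap above 2000 bp. On chromosome 2, 3 of 1834 probes were left out for an outlier mark on the spot, and on chromosome 9 none of 1650. Outlier marks on the local background were not used to leave out probes. Without probes that carry those marks, 1747 and 1580 members remain.

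The cells were R1E, a line of mouse embryonic stem cells, kept for 8 h in growth medium with 1000 units/ml leukaemia inhibitory factor, which all groups received. The untreated group had no drug and the other group had 0.5 µM adriamycin, a DNA-damaging agent. Fixed chromatin of each condition was pulled down by an antibody to p53 (10 µg), and input (Cy3) and precipitated (IP, Cy5) DNA were amplified by ligation-mediated PCR and hybridised together, with no dye swap. The chromosome 2 interval was on design 1 and the chromosome 9 interval on design 2, with 1 array per condition and design, 4 arrays in all. There were no replicates and no test, and array and condition cannot be told apart. The comparison asks where p53 was bound with and without DNA damage. An IgG or p53-null control was not analysed here.

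Olfactory receptors are G-protein-coupled odorant receptors, each chosen for expression in few olfactory sensory neurons. Their genes lie in long clusters, many with AT-rich, CpG-poor promoters, and in most other cell types they are kept silent. p53 is a transcription factor that is stabilised after DNA damage and binds response elements made of a pair of decamers. Silent chromatin itself was not measured here, since the files hold neither histone marks nor expression. The array files used here give neither gene names nor a genome build, so the receptor content of the intervals was not checked in array coordinates.

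Promoter sequences from RefSeq (GRCm38.p6, a build that need not be the arrays') show what the receptor clusters of both chromosomes are made of. In that annotation, neighbouring protein-coding genes formed an unbroken run of 123 olfactory receptor genes on chromosome 2, which had 287 such genes of 1782, and of 40 on chromosome 9, which had 130 of 1201. Promoters were listed for 112 and 33 genes of these runs. The sequences below, read on the gene's strand, are the 250 bases before the annotated start. For each run they show the promoter whose GC content lay nearest the median and the one richest in CpG, with CG in capitals.
Olfr1143, chr2:87802141-87802390, + strand: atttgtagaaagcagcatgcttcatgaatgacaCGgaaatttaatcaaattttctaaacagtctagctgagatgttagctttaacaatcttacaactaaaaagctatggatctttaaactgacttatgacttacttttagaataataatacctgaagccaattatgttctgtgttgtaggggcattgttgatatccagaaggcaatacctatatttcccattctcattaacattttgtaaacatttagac
Olfr1212, chr2:88958218-88958467, + strand: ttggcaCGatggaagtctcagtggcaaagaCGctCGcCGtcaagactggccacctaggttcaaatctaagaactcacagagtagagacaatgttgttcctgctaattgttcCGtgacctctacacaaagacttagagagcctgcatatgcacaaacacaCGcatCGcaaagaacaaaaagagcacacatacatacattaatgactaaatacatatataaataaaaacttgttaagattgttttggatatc
Olfr888, chr9:38108438-38108687, + strand: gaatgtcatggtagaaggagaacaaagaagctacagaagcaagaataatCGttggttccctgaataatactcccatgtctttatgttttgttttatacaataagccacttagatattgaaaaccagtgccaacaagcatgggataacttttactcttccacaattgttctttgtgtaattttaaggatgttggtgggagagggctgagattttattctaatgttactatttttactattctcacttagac
Olfr877, chr9:37854570-37854819, + strand: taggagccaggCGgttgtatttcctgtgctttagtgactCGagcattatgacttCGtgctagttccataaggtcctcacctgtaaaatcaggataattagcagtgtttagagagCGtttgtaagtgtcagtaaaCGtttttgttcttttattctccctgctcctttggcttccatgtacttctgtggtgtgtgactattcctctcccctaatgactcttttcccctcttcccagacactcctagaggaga
The promoters of the chromosome 2 run had a median GC content of 32.0% over 113 promoters and those of the chromosome 9 run 36.3% over 33, against 52.7% over all 32851 promoters, each read over 300 bases (250 before and 50 after the start). Their median was 1 CpG per promoter, against 7 over all promoters. No CpG was present in 34.5% and 30.3% of them, against 5.43% of all promoters. TATAAA, searched on both strands, was in 58.4% and 30.3%, against 13.6%. Letters that fit the p53 decamer consensus, which reads alike on both strands, were in 5 of 113 promoters of the chromosome 2 run (4.42%) and in 0 of 33 of the chromosome 9 run, against 8.36% of all promoters. A pair of such decamers within 13 bases was in 0 and 0, against 0.0731%. The files do not pair probes with these genes, so no array value is attached to a named receptor.

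Probes of the intervals were long and dim. On chromosome 2, 91.5% of member probes had the full 60 bases, against 39.2% of the other probes of the chromosome, and on chromosome 9 88.8% against 38.8%. In untreated and adriamycin arrays, the median input signal of the chromosome 2 members was 141 and 135 intensity units, against 864 and 930 for the rest of the chromosome. This is 6.13-fold and 6.89-fold lower. The chromosome 9 members had 210 and 214, against 1009 and 1212, or 4.80-fold and 5.66-fold lower. The IP signal was lower too, by 6.62-fold and 8.02-fold on chromosome 2 and 5.78-fold and 7.55-fold on chromosome 9. Of the members, 66.2% (chromosome 2) and 54.1% (chromosome 9) lay in the dimmest decile of input of their design, against 8.50% and 5.74% of the rest of each chromosome.

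In the untreated and adriamycin arrays, the IP spot was well above background for 67.8% and 62.2% of chromosome 2 members, against 96.4% and 95.2% of the rest. For chromosome 9 members it was 81.4% and 85.9%, against 98.4% and 99.1%. The median IP spot minus its local background was 6 and 6 units on chromosome 2 and 10 and 12 on chromosome 9. On chromosome 2, 249 (untreated) and 220 (adriamycin) member IP spots had a median brightness no higher than their local background, and on chromosome 9 there were 86 and 57. These spots still carry positive processed IP signals, with medians of 64.7, 65.9, 50.4 and 34.4 units in the same order. No member spot was saturated. The values below therefore rest in part on spots near background, and the deposited value table, which takes the spot medians directly, is set beside them.

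The IP over input ratio was first read over each interval as a whole. Values are log2 of processed IP over input signal, with each array's median at 0. Like probes are the other probes of the same chromosome, weighted to the members' mix of probe length and input decile. On chromosome 2 the median log ratio was 0.09 untreated (interquartile range -0.67 to 1.04) and 0.09 with adriamycin (-0.53 to 0.80). Like probes were at 0.08 and -0.10. On chromosome 9 the members' median was -0.26 untreated (-0.95 to 0.53) and -0.32 with adriamycin (-0.77 to 0.17), and like probes were at -0.11 and -0.39. The gap between members and like probes was 0.01 and 0.19 on chromosome 2 and -0.16 and 0.07 on chromosome 9. Without replicate arrays these gaps have no error of their own. The sign of these levels turned with the processing: in the authors' deposited table, centred the same way, the members' medians were -0.42 and -0.32 on chromosome 2 and -0.47 and -0.66 on chromosome 9 (like probes -0.28, -0.40, -0.36 and -0.63). After normexp background correction they were 0.15, 0.19, 0.56 and 0.04 (like probes 0.16, 0.18, 0.56 and 7.86e-05). After loess they were 0.11, 0.27, -0.06 and 0.15 (like probes 0.17, 0.16, 0.11 and 0.05).

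The level was also read in bins along the intervals. In the 8 bins of 0.5 Mb on chromosome 2, medians ran from -0.04 to 0.23 untreated and from -0.05 to 0.26 with adriamycin. In the 6 bins of 0.3 Mb on chromosome 9 they ran from -0.34 to -0.16 and from -0.39 to -0.26. Input stayed dim in every bin, between -3.12 and -1.75 relative to the array median. The 1 Mb flank below the chromosome 2 interval had an input level of -0.15 untreated and 36.7% full-length probes over 428 probes. The flank above it was dim like the interval, at -1.98, with 81.7% full-length probes over 322 probes. The chromosome 9 flanks lay between, at -0.60 below and -1.13 above.

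Among 60-base probes, the spread of single log ratios within the intervals was widest where input was dimmest. In the dimmest decile of input, the SD over 1173 chromosome 2 members was 1.11 untreated and 0.91 with adriamycin, and over 295 members of the next decile 1.095 and 0.79. Over 28 members of the fifth decile it was 0.79 and 0.68. On chromosome 9 the SD went from 1.17 and 0.83 over 863 members of the dimmest decile to 0.69 and 0.54 over 32 members of the fifth. Single probes at or above 2, 4-fold over the array median, were, of the first 5 deciles, most frequent in the dimmest in both arrays of both intervals. They made up 7.08% (untreated) and 2.64% (adriamycin) of the dimmest chromosome 2 members, against 8.58% and 1.94% of other probes of that length and decile. On chromosome 9 they were 6.03% and 0.232%, against 6.10% and 0.191%. From the third decile to the fifth, no adriamycin log ratio of a 60-base member reached 2 in either interval, while 2.04% to 3.46% (chromosome 2) and 0.932% to 2.03% (chromosome 9) of other such probes did. These deciles held only 102, 52 and 28 members on chromosome 2 and 147, 59 and 32 on chromosome 9, few for shares of that size.

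**Figure D1:**
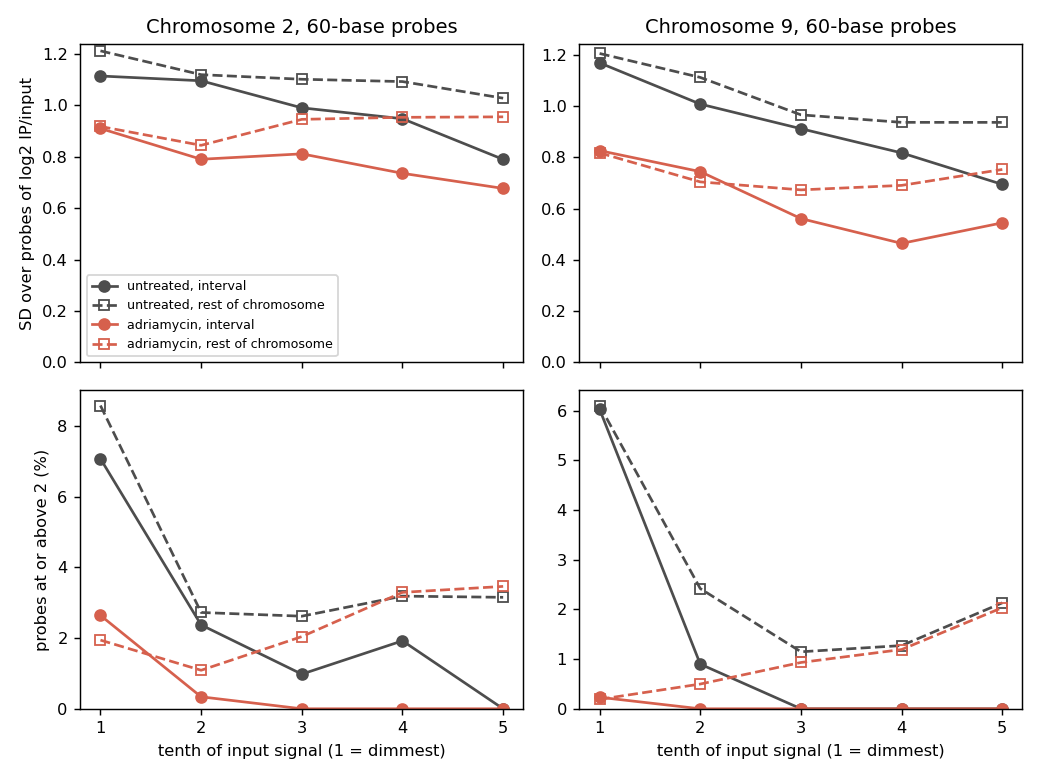
SD of the log2 IP/input ratio over 60-base probes (upper panels) and percent of those probes at or above 2 (lower panels) by decile of input signal, 1 being dimmest, for the interval (filled circles) and the rest of the chromosome (open squares) in untreated (grey) and adriamycin (red) arrays. In the dimmest decile 7.08% of chromosome 2 members and 6.03% of chromosome 9 members reached 2 untreated, near the 8.58% and 6.10% of other probes, and brighter members reached it less often.

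Windows of 3 neighbouring probes spanning at most 1000 bp average out part of this spread. The intervals held 1471 windows on chromosome 2 and 1308 on chromosome 9. A mean at or above 1, 2-fold over the array median, was reached in 152 chromosome 2 windows untreated (10.3%, 95% Wilson interval 8.88% to 12.0%), against 10.6% of all windows of the design. With adriamycin it was 82 (5.57%, 4.51% to 6.87%), against 10%. On chromosome 9 it was 71 windows untreated (5.43%, 4.33% to 6.79%), against 11.1%, and 4 with adriamycin (0.306%, 0.119% to 0.784%), against 11.5%. These intervals cover counting only, since neighbouring windows share probes. Windows of like length and input on the same chromosome reached 1 in 11.0% and 3.55% of cases on chromosome 2 and in 5.54% and 0.774% on chromosome 9. The share of like windows lay inside the counting interval of the members for both untreated arrays and for chromosome 9 with adriamycin. For chromosome 2 with adriamycin the members lay above it, an order that turned in the deposited table (0.202% against 1.79%).

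Tall windows were rare. A mean at or above 2 was reached in 9 chromosome 2 windows untreated (0.612%), against 3.77% of all windows, and in 0 of 1471 with adriamycin, which allows a share of up to 0.204%, against 3.43%. On chromosome 9 there were 5 untreated (0.382%), against 3.91%, and 0 of 1308 with adriamycin, which allows up to 0.229%, against 3.76%. Both limits take windows as independent. Neighbouring windows share probes, so the shares that a count of 0 allows are larger than these. Like windows reached 2 in 1.11% and 0.708% of cases on chromosome 2 and in 0.332% and 0.151% on chromosome 9. The highest member window was at 2.69 untreated and 1.93 with adriamycin on chromosome 2, and at 2.63 and 1.44 on chromosome 9. The rest of these chromosomes reached 5.03 and 4.81, and 5.07 and 4.35.

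**Figure D2:**
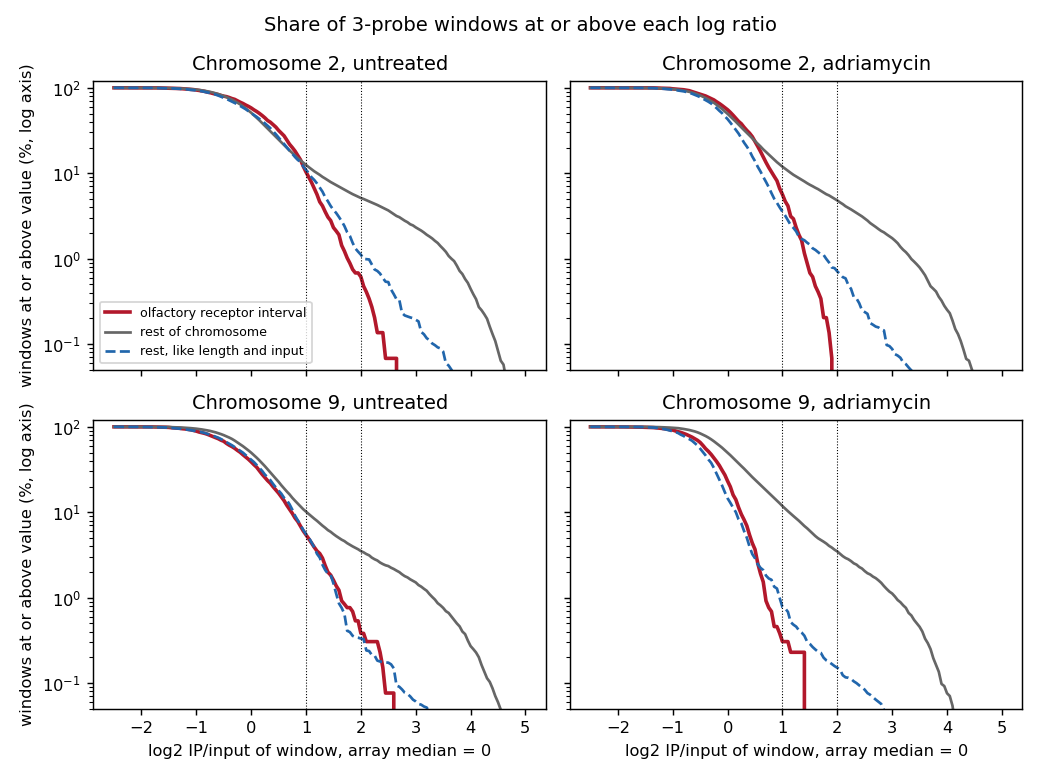
Percent of 3-probe windows (log axis) whose mean log2 IP/input ratio is at or above the value on the horizontal axis, for the interval (red), the rest of the chromosome (grey) and the rest weighted to like probe length and input (dashed blue). The interval curves end at 2.69, 1.93, 2.63 and 1.44 (chromosome 2 untreated and adriamycin, then chromosome 9), while the rest runs on past 4 in every panel.

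Windows on the low side were present as well. Means at or below -1 were reached in 84 chromosome 2 windows untreated (5.71%), against 4.88% of all windows, and in 40 with adriamycin (2.72%), against 3.34%. On chromosome 9 there were 144 untreated (11.0%), against 5.2%, and 110 with adriamycin (8.41%), against 3%. Like windows gave 6.85% and 4.89%, and 10.7% and 11.6%. A mean at or below -2 was seen in 1 member window, on chromosome 9 untreated.

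These shares were different in the deposited table. It filled both arrays for 1391 of 1831 and 1509 of 1650 members, which made 990 windows on chromosome 2 and 1153 on chromosome 9. There, windows at or above 1 were 0.303% and 0.202% on chromosome 2 and 0.694% and 0.347% on chromosome 9. Like windows there gave 2.16% and 1.79%, and 0.890% and 0.653%. Windows at or below -1 came to 23.3% and 20.7% on chromosome 2 and 24.5% and 32.3% on chromosome 9, with like windows at 20.01% and 20.1%, and 19.3% and 25.3%. In both readings no chromosome 2 or chromosome 9 window reached 2 in both arrays.

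High windows in the intervals were mostly not the same windows in the 2 conditions. A mean at or above 1 in both arrays was reached in 15 chromosome 2 windows (1.02%), against 6.78% of all windows of the design, and in 2 chromosome 9 windows (0.153%), against 7.43%. Like windows gave 1.72% and 0.475%. Of the windows at or above 1 untreated, 9.87% on chromosome 2 and 2.82% on chromosome 9 were also at or above 1 with adriamycin. In the rest of these chromosomes it was 69.0% and 73.5%. Read the other way, 15 of the 82 windows at or above 1 with adriamycin on chromosome 2 (18.3%) and 2 of the 4 on chromosome 9 (50%) were so untreated, against 72.3% and 63.1% in the rest. The rest is brighter and was not weighted to like windows in these shares. Like windows reached 1 untreated in 11.0% and 5.54% of cases, and in both arrays in only the 1.72% and 0.475% given above. At a mean of 2 in both arrays there were 0 of 1471 and 0 of 1308, where the rest had 4.02% and 2.81% and like windows 0.475% and 0.123%.

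**Figure D3:**
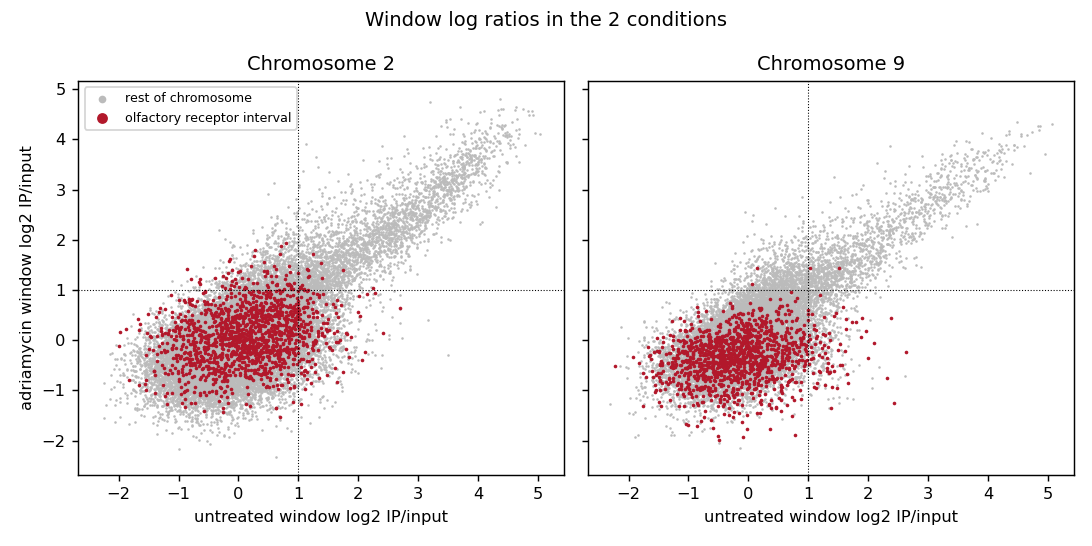
Mean log2 IP/input ratio of each 3-probe window, untreated (horizontal) against adriamycin (vertical), for the interval (red) and the rest of the chromosome (grey), with dotted lines at 1. The 15 chromosome 2 and 2 chromosome 9 member windows in the upper right quadrant lie near its corner, while windows of the rest run along the diagonal to above 4.

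Correlations describe the same pattern. Between the untreated and adriamycin arrays of a design, which share probe sequences and amplification, Pearson's r over windows was 0.24 on chromosome 2 (1471 windows) and 0.21 on chromosome 9 (1308), against 0.76 and 0.76 over 31332 and 18427 windows of the rest. Spearman's rho, which compares ranks, was 0.24 and 0.21, against 0.57 and 0.59. Over single probes Pearson's r was 0.20 and 0.15, against 0.59 and 0.59. Other 60-base probes of the 2 dimmest input deciles had 0.15 (5296 probes) and 0.20 (2455), near the 0.16 and 0.13 of members of that kind. Neighbouring member probes within 400 bp hardly resembled each other within an array, with r of 0.10 and 0.08 on chromosome 2 and 0.13 and 0.12 on chromosome 9, against 0.55 and 0.64, and 0.50 and 0.72, in the rest. Other 60-base probes of the 2 dimmest input deciles were similarly low, with 0.17 and 0.08 on chromosome 2 and 0.17 and 0.15 on chromosome 9, where members of that kind had 0.09 and 0.04, and 0.11 and 0.08. The separate signals were much more alike between arrays: r over member probes was 0.68 and 0.74 for input and 0.72 and 0.81 for IP.

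Across whole tiled regions no member stood out by a high level. Of the 83 and 79 regions, 63 and 61 had at least 10 probes. On chromosome 2 their median log ratios ran from -0.997 to 0.95 (median 0.10) untreated and from -0.45 to 0.59 (median 0.09) with adriamycin. On chromosome 9 they ran from -0.76 to 0.59 (median -0.25) and from -0.84 to 0.16 (median -0.32). None reached 1 in either array, where 56 of 1118 such regions (5.01%) did in the rest of chromosome 2 and 26 of 664 (3.92%) in the rest of chromosome 9. The region highest in untreated cells on chromosome 2, chr2:87009045-87015598 with 17 probes, was at 0.95 untreated and 0.20 with adriamycin. The region highest with adriamycin, chr2:88993423-89000218 with 30 probes, was at 0.44 and 0.59. The order of regions in 1 array was hardly kept in the other, with Spearman's rho of 0.25 over 63 regions on chromosome 2 and -0.10 over 61 on chromosome 9. In the rest, which is brighter and was not weighted here, rho was 0.63 and 0.66. Pearson's r was 0.26 and -0.03, against 0.88 and 0.87 in the rest.

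**Figure D4:**
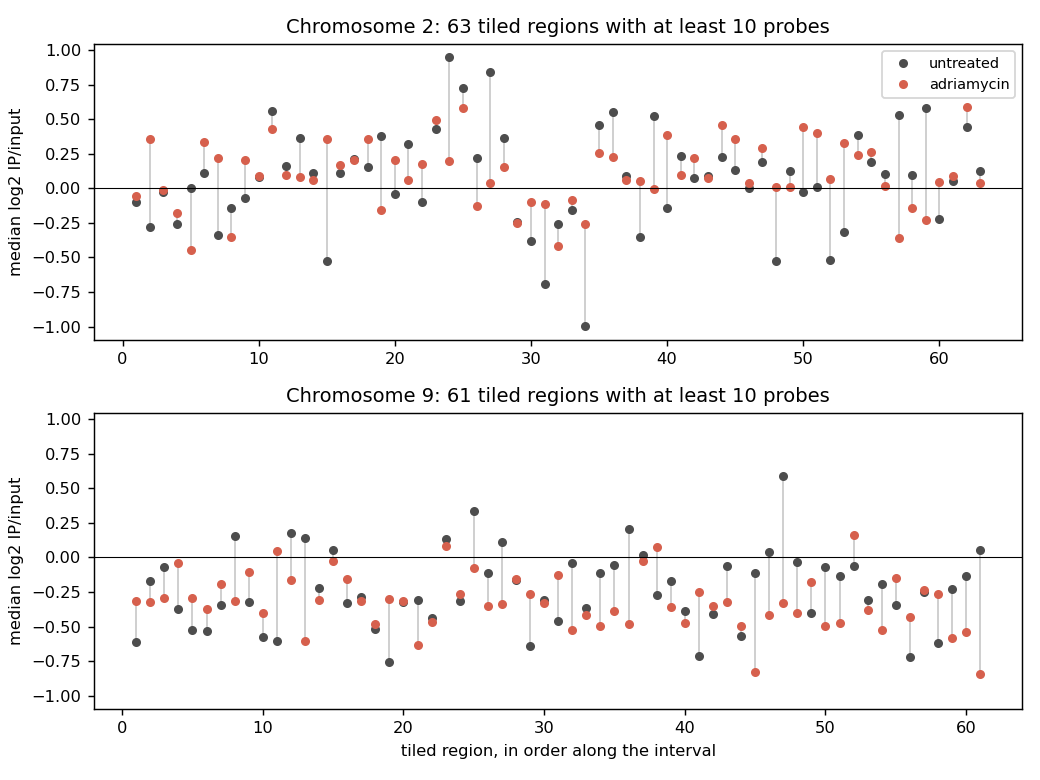
Median log2 IP/input ratio of each tiled region with at least 10 probes, in order along the interval, untreated (grey) and adriamycin (red), joined by a line. All points of both intervals lie between -0.997 and 0.95, and the gap between the conditions of a region is often as wide as the differences between regions.

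The change with adriamycin was centred near 0 on chromosome 2, while on chromosome 9 its centre depended on the setting. Per probe, the median difference in log ratio, adriamycin minus untreated, was 0.01 on chromosome 2 (interquartile range -0.88 to 0.87) and -0.09 on chromosome 9 (-0.88 to 0.64). Like probes had -0.14 and -0.32. Loess gave 0.17 and 0.20 (like probes 0.02 and -0.09), so the members' sign on chromosome 9 turned with that setting. Normexp gave 0.04 and -0.52 (like probes 0.02 and -0.54). With the input of both arrays averaged into a common denominator, the difference was -0.11 and -0.44 (like probes -0.13 and -0.26). Taken apart, the IP signal changed by a median of -0.07 and -0.45 and the input signal by -0.11 and -0.25 relative to each array's median. Like probes had -0.10 and -0.27 for IP and -0.03 and 0.06 for input. On chromosome 9 the members' IP and input thus both fell, and their ratio moved less than either.

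At the level of windows, a difference of 1 or more upward was seen in 141 chromosome 2 windows (9.59%), against 4.41% of all windows, and in 56 chromosome 9 windows (4.28%), against 4.11%. A difference of -1 or less was seen in 174 (11.8%), against 5.89%, and in 180 (13.8%), against 5.66%. Like windows gave 8.09% and 4.08% upward and 15.3% and 16.6% downward. Part of these differences came with a change of that size in the IP channel alone: 13 of the 141 and 4 of the 56 also had an IP change of 1 or more, and 26 of the 174 and 68 of the 180 an IP change of -1 or less. As shares of all member windows the upward counts are 0.884% and 0.306%, against 1.69% and 1.67% in the rest and 1.31% and 0.696% in like windows. The downward ones are 1.77% and 5.20%, against 1.24% and 0.700% in the rest and 2.94% and 4.03% in like windows. Input, which holds no antibody step, moved by 1 or more in 114 chromosome 2 windows (7.75%) and 67 chromosome 9 windows (5.12%), against 4.21% and 2.71% in the rest and 8.25% and 7.85% in like windows. It moved by -1 or less in 129 (8.77%) and 143 (10.9%), against 2.18% and 0.830% in the rest and 7.42% and 4.77% in like windows. The member region with the largest fall, of those with at least 10 probes, was chr9:39587562-39592088 with 22 probes. It went from 0.06 to -0.84, with a median probe difference of -1.20, and also holds the window with the largest fall. On chromosome 9 it was the 1 member region of 61 whose difference passed 1 in size, and on chromosome 2 there were 0 of 63. In the rest there were 0 of 664 on chromosome 9 and 3 of 1118 on chromosome 2.

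The windows with the largest changes were named by rule from both intervals. The 5 largest rises, all on chromosome 2 and in different tiled regions, were 2.03 to 2.28, with untreated means of -1.98 to -0.85 and adriamycin means of 0.16 to 1.43. The largest, chr2:88391114-88391584, went from -0.85 ± 1.06 (SD over its 3 probes, which are not replicates) to 1.43 ± 1.098. Its IP signal moved by 0.36 and its input by -1.93. The 5 largest falls were -3.69 to -2.47, with 4 on chromosome 9. The largest of them, chr9:39591199-39591534, went from 2.43 ± 1.67 to -1.26 ± 0.47, while its IP signal moved by -1.21 and its input by 2.53. In all 10 windows at least 1 spot was not well above background, so the differences are values as measured and no fold is given. Such windows are common here, since 16.5% of chromosome 2 and 46.3% of chromosome 9 member windows had every spot clear of background. These windows were picked on the ratio, so in all 10 IP went the same way as the ratio and input the opposite way. IP moved by 0.093 to 1.24 in the rises and by -1.71 to -0.38 in the falls. Input moved by -2.02 to -0.91 and by 1.41 to 2.53. IP moved more than input in chr2:85686510-85686880 (1.24 against -0.91) and chr9:38523543-38523949 (-1.71 against 1.41), and less in the others. In the deposited table, or with other settings, the size of these changes moved, and the closing section gives the range.

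The highest windows over both arrays were, with 1 exception, also dim. The highest, chr2:89098224-89098725, had 2.69 ± 1.26 untreated and 0.64 ± 1.51 with adriamycin, and its untreated input lay at the 0.108 percentile of windows of its design. The second, chr2:88285655-88286062, had 2.24 ± 0.52 and 1.05 ± 0.35 at the 0.203 percentile, and the third, chr2:87435604-87436599, had 1.74 ± 0.70 and 1.40 ± 1.36 at the 0.785 percentile. The fifth, chr2:87190454-87190932, had 2.00 ± 1.08 and 0.88 ± 0.69 at the 0.468 percentile. In the deposited table the mean over both arrays of the highest window was 0.24, against 1.67 in the processed signals, and the other 3 had no value there. Under normexp, whose offset shrinks the ratios of dim spots, the means of these 4 windows were between 0.25 and 0.30. Each of these 4 held input spots that were not well above background. The 15 chromosome 2 windows at or above 1 in both arrays merged into 10 regions. Their input percentiles ran from 0.0351 to 4.51, and none had all of its spots well above background.

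The exception was chr9:38469430-38469817, the fourth highest. It overlapped the other of the 2 chromosome 9 windows at or above 1 in both arrays. Its mean was 1.52 ± 1.49 untreated and 1.44 ± 0.78 with adriamycin. Its input lay at the 49.2 percentile of its design, and all of its spots were well above background. Its probes were short for the interval, with a mean length of 55.3 bases. The probe at 38469430 had 0.78 and 0.61, the probe at 38469594 had 0.53 and 1.55, and the probe at 38469760 had 3.23 and 2.16, so 1 probe carried most of the untreated mean. Relative to the array median, input of the probe at 38469760 was dim untreated, at -1.38, and 0.66 with adriamycin. Untreated input of the probes at 38469430 and 38469594 was 0.61 and 0.89. IP of the whole window lay 1.63 and 2.64 above the array median. The tiled region around it, chr9:38465048-38471384, held 23 probes over 6337 bp, and its 20 other probes had medians of -0.24 untreated and -0.19 with adriamycin. Of those 20, 2 reached 1 untreated and 0 with adriamycin. The mean over both arrays was 1.48. It was 1.52 in the deposited table, 1.17 with loess and 0.61 with normexp. The array files give no gene for it.

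**Figure D5:**
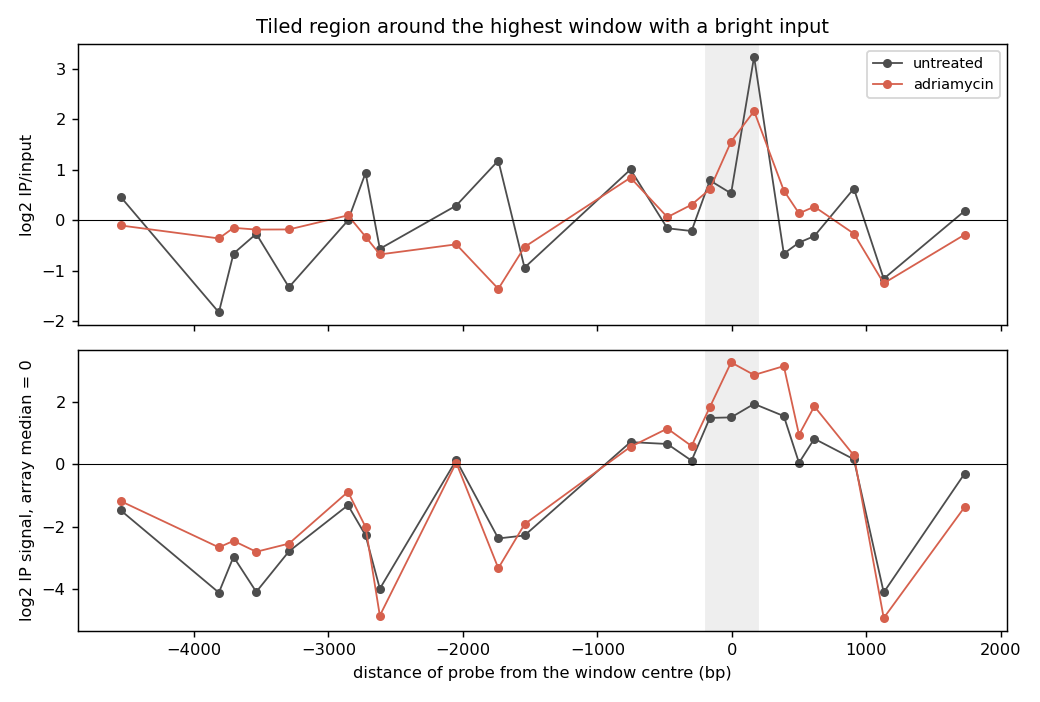
Log2 IP/input ratio (upper panel) and log2 IP signal relative to the array median (lower panel) of the 23 probes of the tiled region around the chromosome 9 window, by distance from the window's centre, untreated (grey) and adriamycin (red). The shaded band is the window, whose highest probe reached 3.23 untreated and 2.16 with adriamycin, while the 20 probes outside had medians of -0.24 and -0.19. Input, not drawn, was -1.38 and 0.66 at that highest probe.

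The lowest windows over both arrays were all on chromosome 9. The lowest, chr9:38248076-38248357, had -1.76 ± 1.00 untreated and -1.31 ± 0.46 with adriamycin, with input at the 25.7 percentile. The window chr9:38724813-38725273, with -1.49 ± 0.67 and -1.23 ± 0.31, was the 1 of these 5 in which all spots were well above background. Of the 5, 4 were at or below -1 in both arrays.

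Restricting the windows to those in which every spot of both channels and both arrays was well above background kept 242 of 1471 on chromosome 2 (16.5%) and 606 of 1308 on chromosome 9 (46.3%), where the rest kept 84.9% and 94.3%. Of the 242, 18 were at or above 1 untreated (7.44%), 1 with adriamycin (0.413%) and 0 in both. Of the 606, 28 were at or above 1 untreated (4.62%), 4 with adriamycin (0.660%) and 2 in both (0.330%). Clear windows of the rest were at or above 1 in 13.66% untreated and 13.7% with adriamycin on chromosome 2, and in 10.4% and 12.5% on chromosome 9. They were at or above 1 in both arrays in 10.03% and 7.88% of cases. Pearson's r between conditions over clear member windows was 0.26 and 0.30, against 0.80 and 0.77 in the rest. Spearman's rho was 0.24 and 0.28, against 0.60 and 0.61. The clear windows of the rest were not weighted to the length and input of the clear member windows.

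Merged into regions by the rule that a window mean and at least 2 of its 3 probes reach 1, the chromosome 2 interval held 71 bound regions untreated and 43 with adriamycin, beside 42 and 18 depleted regions by the same rule with the sign turned. The chromosome 9 interval held 23 and 2 bound regions, beside 63 and 37 depleted. Per 1000 windows this is 48.3 and 29.2 bound on chromosome 2, against 20.1 and 18.1 in the rest, and 17.6 and 1.53 on chromosome 9, against 17.3 and 19.8. The higher chromosome 2 counts do not mean more high windows. There 10.3% and 5.57% of member windows reached 1, against 12.5% and 11.9% in the rest. A count of regions also depends on how far high windows merge, and regions were not counted among like probes. Depleted regions were 28.6 and 12.2 per 1000 windows on chromosome 2, against 20.6 and 14.0 in the rest, and 48.2 and 28.3 on chromosome 9, against 19.97 and 9.23. Bound regions of the intervals were short: 15 of 71 and 1 of 43 on chromosome 2 and 5 of 23 and 0 of 2 on chromosome 9 were over 1000 bp wide. In the rest, 35.1% and 43.8% of bound regions on chromosome 2 and 38.9% and 46.7% on chromosome 9 were. At a threshold of 2 there were 4 and 0 bound regions on chromosome 2 and 3 and 0 on chromosome 9. This is 2.72 and 0 per 1000 windows, against 5.33 and 6.32 in the rest, and 2.29 and 0, against 4.45 and 4.88. There were 0 depleted regions at -2 in either interval, where the rest had 0.383 and 0.0957, and 0.326 and 0.109, per 1000 windows. In the deposited table the bound counts at 1 were 1 and 1 on chromosome 2 and 2 and 1 on chromosome 9.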

How the data were processed

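Each array read input and p53 IP DNA of 1 condition. Per the file headers, Agilent Feature Extraction 10.1.1.1 made the signals. The deposited processed intensities have had background removed and a linear factor applied to each dye. The build of the array coordinates is not given in the sources. The deposited marks per spot, used as given by the scanner software, are other values (0 or 1). The deposited value table of the authors is on a log2 scale: within 1e-06, every filled value was log2 of IP over input, each a spot median less its local background. It is not centred, with column medians of -0.94 and -1 (design 1, untreated and adriamycin) and -0.93 and -0.45 (design 2).

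Control spots, and probes whose spot was marked as an outlier on either array of their design, were dropped. Probes with an outlier mark on the local background alone were kept. Log2 ratios were centred on the array median, with no loess or quantile step. Like probes were weighted over strata of probe length (60, 56 to 59, or fewer bases) and input decile (mean of both arrays). Like windows were weighted over their own classes of mean probe length and over deciles of the window's mean input. Bound windows within 500 bp were merged. Normexp (offset 50) used median spot signals, since the files used here have no mean signals. Regions named were the 5 highest, 5 lowest, 5 largest rises and 5 largest falls, 1 per tiled region, over both intervals. A limit for a count of 0 is 3 windows, which takes windows as independent and is too low for windows that share probes. The number of arrays limits the precision. The list of known p53 target genes was not counted, since no probe is paired with a gene. RefSeq gave promoter letters and gene order alone. The members and lists were chosen with earlier results of these data known. Python 3.11.15, pandas 2.3.3, R 4.3.3 and limma 3.58.1 were used.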

Additional observations from a re-analysis of the deposited data

How the results depend on the processing

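No paired analysis was possible because no array was repeated: each design read each condition once. Over the alternatives, the gap to like probes ran from -0.15 to 0.28 (chromosome 2 untreated), 0.0078 to 0.30 (adriamycin), -0.26 to -0.0031 (chromosome 9 untreated) and -0.32 to 0.10 (adriamycin), and the difference from -0.11 to 0.17 and from -0.52 to 0.20, so 4 of these 6 ranges span 0. Of window shares 23 of 72 stayed within the Wilson interval, and of region counts 17 of 56 within 1.5 times. These totals include stricter thresholds (1.5 and 2 for shares, 2 for regions), set against values at 1. A stricter threshold cannot raise a share of windows, so the totals do not reflect processing alone. Past the SD over medians of tiled regions, a wide bound that says little about stability, lay the chromosome 9 adriamycin gap without strata (-0.32) and the chromosome 9 difference under normexp (-0.52). The cause was not tested. Filters on dim spots lower the number of windows by construction, and a filter on IP spots selects on the numerator of the ratio. The settings that leave out background outlier marks or all probes not well above background, and 20 input strata, were chosen after seeing the data.

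Percent of windows are given for chromosome 2 untreated, chromosome 2 adriamycin, chromosome 9 untreated and chromosome 9 adriamycin, where they moved. At or above 1: the deposited table gave 0.303, 0.202 and 0.694, loess 8.43 (chromosome 2 untreated), 7.49 and 2.91 (chromosome 9), without dim input 4.06, 1.26 and 3.30, windows of 5 probes 5.32, 1.99 and 3.26, and probes well above background in both channels 6.78, 0.503 and 4.21. At a threshold of 1.5 the shares were 2.31, 0.680, 1.61 and 0, and at 2 they were 0.612, 0, 0.382 and 0. At or below -1: the deposited table gave 23.3, 20.7, 24.5 and 32.3, loess 4.08, 0.340, 5.35 and 0.917, without dim input 8.90, 4.16 and 13.1, windows of 5 probes 2.07, 0.477, 5.50 and 4.29, probes well above background 8.91 and 4.95 (chromosome 9), and narrower intervals 6.86 (chromosome 9 adriamycin). At -1.5 they were 0.952, 0.0680, 1.53 and 1.22, and at -2 they were 0, 0, 0.0765 and 0.

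Bound regions, in the same order, were 1, 1, 2 and 1 in the deposited table, 24 (chromosome 2 adriamycin) and 18 (chromosome 9 adriamycin) with loess, 24, 3 and 13 without dim input, 33, 10, 10 and 0 with windows of 5 probes, 15, 0 and 10 over probes well above background, and 4, 0, 3 and 0 at a threshold of 2. Depleted regions were 78, 76 and 100 in the deposited table (chromosome 9 untreated stayed within bounds), 27, 3, 39 and 3 with loess, 11, 3, 24 and 13 with windows of 5 probes, 11, 6, 33 and 20 over probes well above background, and 0 in all arrays at a threshold of 2.

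Of 113 values for the named windows, 79 stayed within the SD over their 3 probes, 32 moved and 2 reversed: under normexp chr9:38421522-38421971 came to 0.18, and chr9:39521049-39521596 to 0.021. The normexp offset shrinks the ratios of dim spots before centring, so its values there are set in part by the offset. The largest fall ran from -3.69 to -0.88 and the largest rise from 0.14 to 2.34 over these settings.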
